A study of Mus musculus with 6 samples.

Results

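The collagen chain family was taken as every gene whose symbol has the form Col, a number, the letter a and a number, with Col10a1 left out. This gave 43 of the 23420 genes in the deposited table: 11 fibrillar, 8 network, 9 FACIT (fibril-associated collagens with interrupted triple helices) and 15 other chains. The chains were measured by RNA sequencing in 3 Tfam cKO and 3 Control libraries, all made from humeri of C57BL/6 mice at postnatal day 6 from which the marrow had been rinsed. In Tfam cKO mice, Tfam, which packages mitochondrial DNA and is needed for its transcription, was deleted with Prx1-Cre. This driver acts in the mesenchyme of the limb bud, which gives rise to bone, cartilage, tendon and connective tissue of the limb, while blood, vessel-lining and muscle fibre cells of the bone sample lie largely outside it. The labels give the other genotype as Control, without its Cre or floxed alleles. They do not tie libraries to animals, and p-values therefore reflect only how far these libraries spread.

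Collagens are built from alpha chains in which glycine recurs at a fixed spacing, so that chains can wind into a triple helix. Type I, a fibrillar collagen, makes up most of the organic matrix of bone, while types II, IX and XI form the fibrils of cartilage. Type V and type XI chains sit inside the fibrils of other collagens and limit their width, FACIT collagens decorate the fibril surface, type IV forms the sheet of basement membranes, and type VI forms beaded filaments around cells.

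The repeat can be read in the coding sequences, and the stretches below are shown because they hold the start of the longest helical run in 6 chains that changed between the genotypes. In the GENCODE M21 annotation of GRCm38, all 43 chains were matched, and the longest run of triplets that each begin with a glycine codon (GGN) was counted. This run held 216 to 344 triplets in the 11 fibrillar chains, with a median of 338, and 39 to 66 in the network chains, 32 to 113 in the FACIT chains and 23 to 87 in the other chains. Among the fibrillar chains, Col24a1 (216) and Col27a1 (217) had the shortest. Each stretch of 90 bases gives 3 codons before the run and then its first 9 triplets, with the glycine codons of the run in capitals. The coordinates span introns where the stretch crosses an exon boundary.
Col1a1 (chr11:94939442-94939930, + strand, codons 165 to 194): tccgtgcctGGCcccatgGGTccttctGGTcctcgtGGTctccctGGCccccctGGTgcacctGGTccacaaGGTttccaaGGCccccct
Col1a2 (chr6:4512397-4515507, + strand, codons 94 to 123): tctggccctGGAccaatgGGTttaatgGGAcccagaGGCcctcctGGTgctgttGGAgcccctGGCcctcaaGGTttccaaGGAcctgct
Col11a2 (chr17:34051265-34051515, + strand, codons 484 to 513): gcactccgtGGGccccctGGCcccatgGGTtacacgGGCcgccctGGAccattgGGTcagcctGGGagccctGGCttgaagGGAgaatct
Col4a1 (chr8:11247033-11267623, - strand, codons 40 to 69): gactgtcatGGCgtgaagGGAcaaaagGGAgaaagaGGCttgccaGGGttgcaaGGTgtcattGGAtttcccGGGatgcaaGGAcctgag
Col9a1 (chr1:24209071-24210417, + strand, codons 415 to 444): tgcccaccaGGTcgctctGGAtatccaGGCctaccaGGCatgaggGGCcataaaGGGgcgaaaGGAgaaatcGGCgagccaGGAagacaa
Col18a1 (chr10:77077204-77077755, - strand, codons 950 to 979): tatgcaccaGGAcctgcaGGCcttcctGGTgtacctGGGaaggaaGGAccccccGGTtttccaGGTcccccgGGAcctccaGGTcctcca

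Collagen genes took a smaller part of the Tfam cKO transcriptome. All 43 chains together held 6.46%, 5.59% and 5.91% of the reads in Tfam cKO libraries, against 11.9%, 12.3% and 10.4% in Control libraries, with means of 5.98% ± 0.44 and 11.5% ± 1.01 (SD, n = 3 each). The groups did not overlap (p = 0.1 in an exact two-sided permutation test, which cannot go lower with 3 libraries a group). The difference lay mostly in type I: the other 41 chains held 1.28% ± 0.37 of the reads in Tfam cKO and 1.26% ± 0.14 in Control (exact permutation p = 1), with overlapping libraries. These near-equal means rested on Tfam cKO replicate 1, at 1.71%. Replicates 2 and 3, at 1.11% and 1.02%, lay below every Control library (1.17%, 1.42% and 1.20%). Type I made up 73.6%, 80.1% and 82.8% of all collagen reads in Tfam cKO libraries and 90.1%, 88.5% and 88.5% in Control libraries. Among those 41 chains, type XI held a smaller share in Tfam cKO (0.173% ± 0.011 against 0.358% ± 0.009), while type IV (0.166% ± 0.010 against 0.105% ± 0.002) and type VI (0.173% ± 0.074 against 0.102% ± 0.013) held larger shares. The libraries did not overlap for any of these 3 types, and the exact permutation p was 0.1 for each. For type VI they nearly touched, at 0.256%, 0.145% and 0.117% in Tfam cKO and 0.0989%, 0.117% and 0.0908% in Control, and the difference of 0.0708 percentage points was 0.0290 without Tfam cKO replicate 1, a setting added after seeing the data. In bulk RNA, fewer cells of a type and less RNA per cell cannot be told apart.

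**Figure D1:**
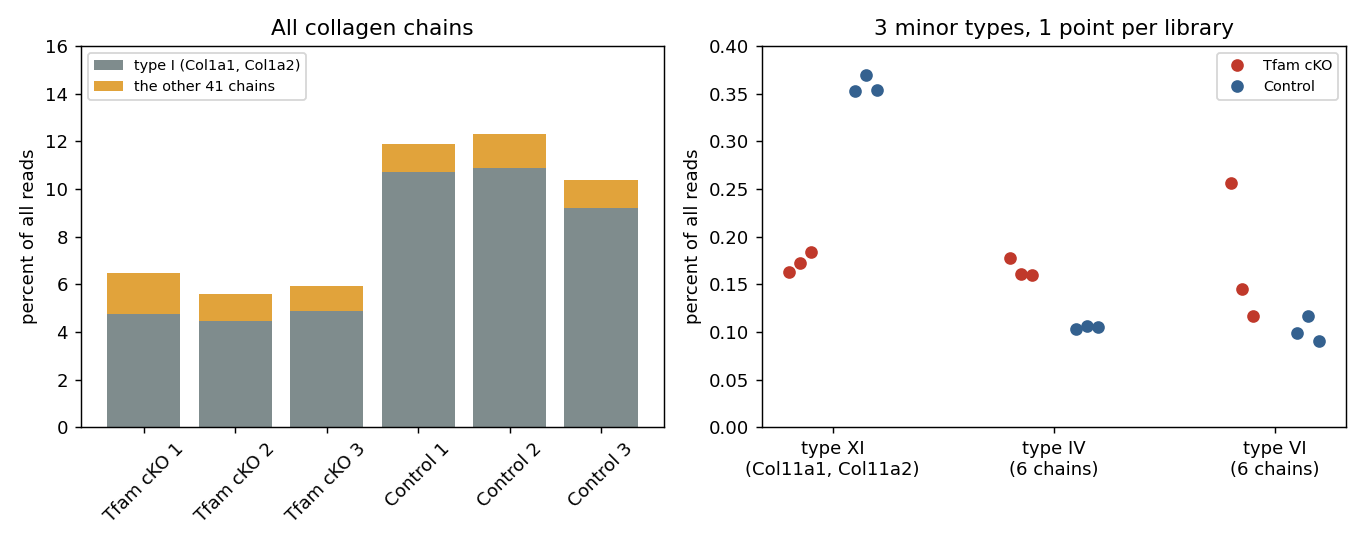
Left, percent of all reads in type I collagen and in the other 41 chains, stacked, for each library. Right, percent of all reads in types XI, IV and VI, 1 point per library. Type I accounts for the shorter Tfam cKO bars, and the points of the 2 genotypes are apart for types XI and IV, while for type VI Tfam cKO replicate 3 and Control replicate 2 nearly coincide at 0.117%.

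Of the 43 chains, 40 had a mean of at least 1 normalized read over the 6 libraries and were tested with limma on log2(normalized reads + 1), on which all fold changes below are given as Tfam cKO minus Control. At an adjusted p under 0.05, 9 chains were higher and 7 lower, and 24 did not pass. Over all 14438 genes tested, 6.42% were called higher and 6.01% lower. The groups did not overlap in 19 of the 40 chains, against 32.1% of all genes. The median log2 fold change of the chains was 0.30, and that of all genes tested was 0.01. The classes differed in their counts: 1 fibrillar chain was higher and 5 lower of 11, 3 network chains were higher and 0 lower of 8, 1 FACIT chain was higher and 0 lower of 8, and 4 other chains were higher and 2 lower of 13. The medians were -0.24, 0.88, 0.54 and 0.47 in the order of these classes. The network median takes in chains with few reads: Col4a4 (12 in Tfam cKO and 3 in Control), Col4a3 (6 and 1) and Col4a6 (5 and 1). The 3 chains not tested were Col19a1, a FACIT chain (3 reads in Tfam cKO and 2 in Control), Col17a1, of epithelial hemidesmosomes (2 and 1), and Col6a4 (0 and 1).

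**Figure D2:**
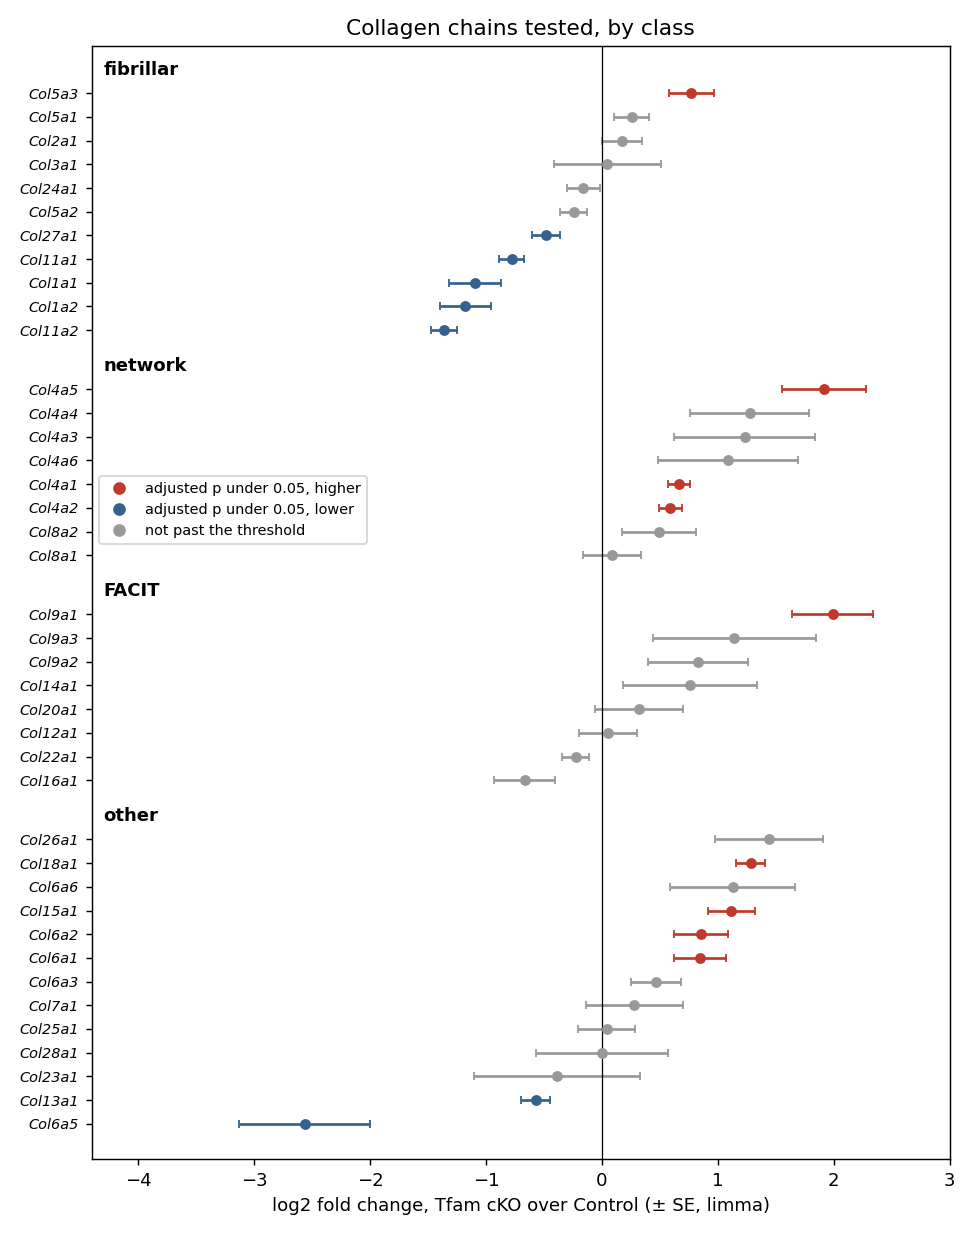
Log2 fold change of the 40 chains tested (Tfam cKO over Control, points) with limma's standard error (bars), by class. Of the fibrillar chains 5 lie left of 0 and past the threshold, and the network chains all lie right of 0, with 3 past it. Col4a3, Col4a4 and Col4a6 among the network chains rest on few reads.

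The count of lower chains was 4 without Control replicate 1, and leaving out any 1 library gave 6 to 10 higher and 4 to 8 lower chains. Tfam cKO replicate 1 and Control replicate 2 held the most Col3a1 of their groups, and without both, a choice made after seeing the data, 7 chains were higher, all 7 among the 9, and 4 lower, 3 of them among the 7. Tfam itself was at 28.1, 46.1 and 47.6 normalized reads in Tfam cKO and 61.3, 72.1 and 78.6 in Control (log2 fold change -0.81 ± 0.21 SE, adjusted p = 0.0246), with no overlap. Its adjusted p was 0.0755 without Tfam cKO replicate 1, 0.0687 without Control replicate 2, 0.107 without Control replicate 3, 0.165 without both Col3a1-rich libraries and 0.0564 with DESeq2. The deleted part of Tfam was not known here.

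Type I collagen was lower by more than the spread between libraries. Col1a1 (chromosome 11, 94936270 to 94951856, plus strand, 51 exon blocks) and Col1a2 (chromosome 6, 4505697 to 4541543, plus strand, 52 exon blocks) encode its chains, which assemble at a fixed ratio, with more of the Col1a1 product. Col1a1 had 38026, 36052 and 38881 normalized reads in Tfam cKO and 86620, 88345 and 67894 in Control. The Tfam cKO libraries lay close together and far below every Control library. The log2 fold change was -1.09 ± 0.23 (SE, adjusted p = 0.00738). Col1a2 had 36043, 32928 and 37941 normalized reads in Tfam cKO and 83957, 86624 and 71771 in Control (-1.18 ± 0.22 SE, adjusted p = 0.00433), again without overlap. The Col1a1 to Col1a2 ratio per exon length was 1.16 ± 0.04 in Tfam cKO and 1.09 ± 0.05 in Control (SD, n = 3 each), with overlapping libraries. Without Control replicate 1 the adjusted p was 0.0864 for Col1a1 and 0.0565 for Col1a2, and without both Col3a1-rich libraries it was 0.128 and 0.0960, with log2 fold changes of -1.03 and -1.13.

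Type XI fell with it. Col11a2 (chromosome 17, 34039437 to 34066242, plus strand, 64 exon blocks) encodes a chain of type XI, known from cartilage and also made by osteoblasts. It had 1024, 1247 and 1352 normalized reads in Tfam cKO and 3097, 3136 and 3018 in Control, a log2 fold change of -1.36 ± 0.12 (SE, adjusted p = 2.87e-05). Control libraries spanned a narrow range, and each Tfam cKO library held fewer reads than any of them. Its partner chain Col11a1 (chromosome 3, 114030540 to 114220326, plus strand, 67 exon blocks) had 1515, 1401 and 1539 normalized reads in Tfam cKO and 2512, 2793 and 2353 in Control (-0.78 ± 0.11 SE, adjusted p = 0.000642). Both calls held under all 19 alternatives. Per kilobase of exon, Col11a2 stood at 215 ± 30 normalized reads in Tfam cKO and 550 ± 11 in Control, and Col11a1 at 204 ± 10 and 351 ± 31. Col11a2 was thus well above Col11a1 in Control, and in Tfam cKO the means differed by less than the spread of Col11a2.

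The sequences before the start sites of the type XI genes are shown because these chains hold the smallest p-values among the minor fibrillar chains. They are the 250 bases upstream of the RefSeq start in GRCm38.p6. That start is the deposited table's own for Col11a1 and lies 299 bases before it for Col11a2. Capitals mark matches to 3 motifs on either strand. The TATA box is spelled TATAAA. The CCAAT box is named by its letters and appears here from its opposite strand as ATTGG. The GC box is spelled GGGCGG, which reads CCGCCC when it lies on the opposite strand.
Col11a2 (chr17:34038888-34039137, + strand): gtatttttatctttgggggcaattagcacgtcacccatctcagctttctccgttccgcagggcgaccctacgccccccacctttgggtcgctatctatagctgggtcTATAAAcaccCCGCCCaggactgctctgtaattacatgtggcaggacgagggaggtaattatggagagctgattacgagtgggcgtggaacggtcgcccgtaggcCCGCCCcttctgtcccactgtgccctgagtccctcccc
Col11a1 (chr3:114030290-114030539, + strand): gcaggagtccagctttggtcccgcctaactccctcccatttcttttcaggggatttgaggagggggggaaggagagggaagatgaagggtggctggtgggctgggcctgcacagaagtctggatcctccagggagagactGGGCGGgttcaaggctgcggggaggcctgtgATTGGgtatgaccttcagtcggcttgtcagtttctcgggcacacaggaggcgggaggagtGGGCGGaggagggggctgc
The Col11a2 window held 1 TATA box and 2 GC boxes, and the Col11a1 window 1 CCAAT box and 2 GC boxes. With both strands searched, and windows of the same length for 34 of the 43 chains found in the RefSeq table, a GC box occurred in 21 chains (32.7% of all 32851 promoters), a CCAAT box in 12 (33.8%), a TATA box in 4 (12.4%), the Runx site AACCACA in 1 (4.4%) and the CARE core TGATGNAA, read by ATF4 with CHOP, in 0 (3.45%). The GC box was in 5 of 9 chains that were higher and in 5 of 6 that were lower. Col1a1, which was also lower, had no window and is not among these 6. These matches describe letters in the window and are not tested sites.

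The remaining fibrillar chains divided. Col27a1, a fibrillar chain of cartilage and growth plate, was at 96.3, 94.1 and 91.0 normalized reads in Tfam cKO and 122, 136 and 137 in Control (-0.48 ± 0.12 SE, adjusted p = 0.020). The groups did not overlap, but the adjusted p was 0.0614 without Control replicate 2, 0.0755 without Control replicate 3, 0.0670 without Tfam cKO replicate 3, 0.116 without both Col3a1-rich libraries and 0.108 with DESeq2. Col5a3, a minor chain of type V, was the fibrillar chain that rose, at 242, 148 and 144 normalized reads in Tfam cKO and 118, 107 and 81.6 in Control (0.77 ± 0.20 SE, adjusted p = 0.0221). Tfam cKO replicate 1 was the highest of its libraries, and the call ended without it (0.53, adjusted p = 0.0745), without Control replicate 3 (0.62, 0.107) or without both Col3a1-rich libraries (0.57, 0.127).

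The other type V chains, which start fibrils together with type I, did not pass. Col5a1 averaged 1735 ± 382 normalized reads in Tfam cKO and 1439 ± 214 in Control (0.26 ± 0.15 SE, adjusted p = 0.298), and Col5a2 averaged 2513 ± 307 and 2961 ± 172 (-0.24 ± 0.12 SE, adjusted p = 0.203). Relative to Col1a1 both stood higher in Tfam cKO, by 1.35 and 0.85 in log2, with no overlap between libraries (exact permutation p = 0.1 each, 0.15 adjusted over the 15 ratios compared). Type II collagen, Col2a1, the main collagen of cartilage, was at 680, 425 and 386 normalized reads in Tfam cKO and 394, 448 and 439 in Control (0.18 ± 0.17 SE, adjusted p = 0.555), and at -0.07 without Tfam cKO replicate 1. Col24a1, which osteoblasts make, was at 204 to 285 normalized reads in Tfam cKO and 225 to 279 in Control (-0.16 ± 0.14 SE, adjusted p = 0.505).

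Col3a1, the fibrillar collagen of skin, vessels and loose connective tissue, varied most between libraries of 1 group among the abundant chains. It had 6330, 2348 and 1114 normalized reads in Tfam cKO and 1946, 3882 and 1988 in Control. The Tfam cKO libraries enclosed the whole Control range, and the log2 fold change was 0.05 ± 0.46 (SE, adjusted p = 0.962), or -0.61 when Tfam cKO replicate 1 was left out and 0.64 when replicate 3 was. Per exon length, Col11a2, Col3a1 and Col5a2 were the fibrillar chains that followed type I in Control at 550 ± 11, 468 ± 199 and 448 ± 26 normalized reads per kilobase, and the spread of Col3a1 covers its neighbours in that order. In Tfam cKO the order of the fibrillar chains after type I was Col3a1 (587 ± 490), Col5a2 (380 ± 46), Col11a2 (215 ± 30), Col5a1 (207 ± 46) and Col11a1 (204 ± 10), the last 3 within their spread.

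Among the network collagens, 3 of the 6 basement membrane chains of type IV rose: Col4a1, Col4a2 and Col4a5. Col4a1 and Col4a2 encode the common type IV chains and are divergent neighbours on chromosome 8 (11198423 to 11312826, minus strand, and 11312829 to 11449287, plus strand), with 2 bases between their annotated starts. Col4a1 had 1677, 1511 and 1533 normalized reads in Tfam cKO and 993, 1014 and 963 in Control (0.67 ± 0.09 SE, adjusted p = 0.000852). Col4a2 had 1070, 946 and 943 normalized reads in Tfam cKO and 635, 694 and 635 in Control (0.59 ± 0.10 SE, adjusted p = 0.00212). In both genes every Tfam cKO library lay above every Control library, and both calls held under all 19 alternatives. The Col4a2 to Col4a1 ratio per exon length was 0.645 ± 0.012 in Tfam cKO and 0.680 ± 0.023 in Control, a log2 difference of -0.08 without overlap (exact permutation p = 0.1).

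Col4a5, an X-linked chain of the kidney and smooth muscle forms of type IV (X chromosome, 141475419 to 141689235, plus strand), was at 22.7, 16.9 and 15.9 normalized reads in Tfam cKO and 6.03, 2.81 and 3.98 in Control. This was 54 reads in Tfam cKO and 13 in Control, without overlap, and a log2 fold change of 1.92 ± 0.36 (SE, adjusted p = 0.00478), or 1.56 and adjusted p = 0.0733 without both Col3a1-rich libraries. Its partners in these forms were near the limit of detection. Col4a4 had 12 reads in Tfam cKO and 3 in Control, 4.23 times as many per normalized library (95% counting interval 1.14 to 23.4). Col4a3 had 6 and 1 (6.35, interval 0.770 to 292) and Col4a6 had 5 and 1 (5.29, interval 0.592 to 250.2), and none of the 3 passed. Intervals from reads cover counting error only. The short-chain network collagens of type VIII, made by vessels and by the cornea, did not pass: Col8a1 averaged 85.2 ± 31.7 normalized reads in Tfam cKO and 78.6 ± 23.0 in Control, and Col8a2 48.4 ± 19.1 and 34.5 ± 15.6.

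**Figure D3:**
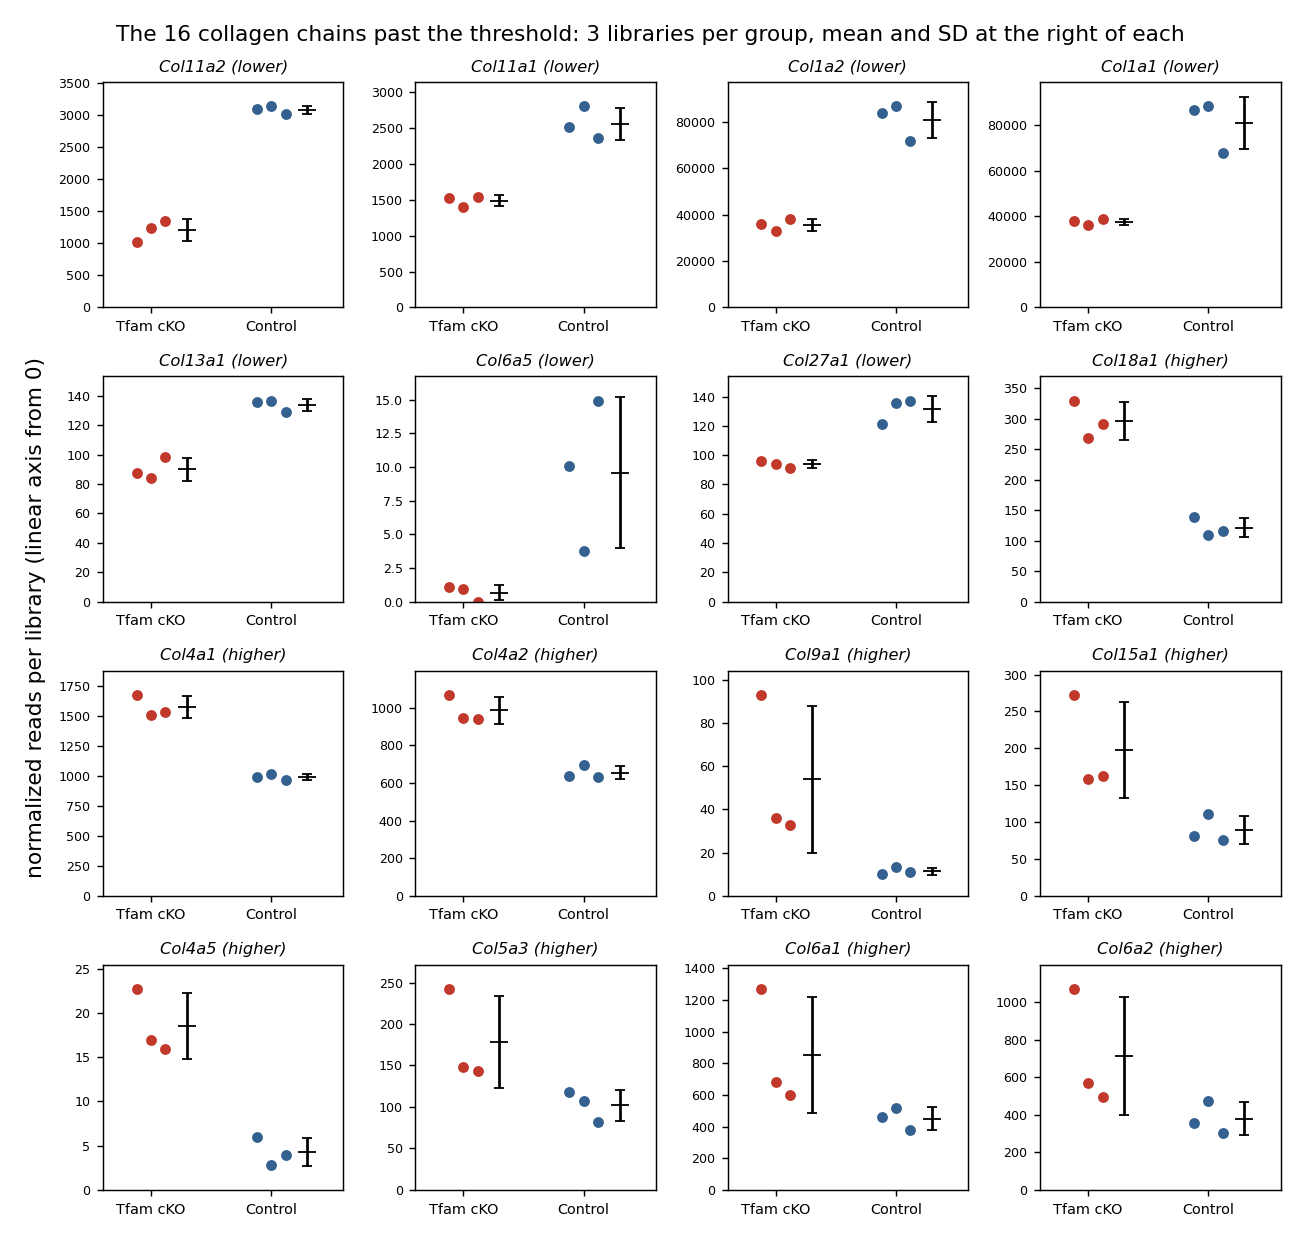
Normalized reads in each library for the 16 chains past the threshold (linear axes from 0), Tfam cKO left and Control right in each panel, with the mean and SD beside the points. In all 16 panels the libraries of the genotypes are apart, and Tfam cKO replicate 1 is the highest library in all 9 chains called higher.

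Among the FACIT collagens, Col9a1 (chromosome 1, 24177610 to 24252738, plus strand, 38 exon blocks), which encodes a chain of the type IX collagen that coats type II fibrils, rose. It had 93.1, 35.8 and 32.8 normalized reads in Tfam cKO and 10.04, 13.1 and 10.9 in Control (1.99 ± 0.35 SE, adjusted p = 0.00308). All Tfam cKO libraries were above Control, replicate 1 by the most, and without it the log2 fold change was 1.52 (adjusted p = 0.00861). The other type IX chains did not pass. Col9a2 had 36.8, 12.2 and 11.6 normalized reads in Tfam cKO and 9.04, 13.1 and 6.96 in Control (0.83 ± 0.43 SE, adjusted p = 0.234). Col9a3 had 27.1, 9.41 and 3.17 in Tfam cKO and 4.02, 10.3 and 0.995 in Control (1.14 ± 0.71 SE, adjusted p = 0.324), and 229 of its 2846 exon bases are shared with Tcfl5 on the opposite strand. Per exon length the Col9a2 to Col9a1 ratio was 0.516 ± 0.039 in Tfam cKO and 1.20 ± 0.27 in Control, with no overlap (exact permutation p = 0.1), whereas the Col9a3 to Col9a1 ratio overlapped.

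The FACIT chains of soft connective tissue and of tissue junctions were not called. Col12a1, a chain of periosteum, tendon and ligament and the FACIT chain with the highest level per exon length, had 2528, 1293 and 1020 normalized reads in Tfam cKO and 1320, 1747 and 1290 in Control (0.05 ± 0.25 SE, adjusted p = 0.916). Its Tfam cKO libraries reached both above and below the Control range, and the difference was -0.32 without Tfam cKO replicate 1. Col22a1, of muscle-tendon junctions, was at 516 to 688 normalized reads in Tfam cKO and 652 to 687 in Control, and Col14a1, of tendon and dermis, at 25.4 to 164 in Tfam cKO and 21.1 to 89.9 in Control. Col16a1 averaged 210 ± 87 normalized reads in Tfam cKO and 329 ± 121 in Control (-0.67 ± 0.26 SE, adjusted p = 0.121), and was called lower once Tfam cKO replicate 1 (-0.98, adjusted p = 0.0177) or both Col3a1-rich libraries (-0.70, adjusted p = 0.0349) were left out. Col20a1 averaged 11.1 ± 4.56 and 8.47 ± 2.46 normalized reads, in the same order of groups.

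Among the other chains, the multiplexins rose. These are basement membrane collagens whose C-terminal fragments, endostatin from Col18a1 and restin from Col15a1, inhibit vessel growth. Col18a1 (chromosome 10, 77052179 to 77166530, minus strand, 43 exon blocks) had 330, 268 and 291 normalized reads in Tfam cKO and 139, 109 and 116 in Control (1.29 ± 0.13 SE, adjusted p = 6.79e-05), the smallest p-value among the chains that rose. Col15a1 had 273, 158 and 163 normalized reads in Tfam cKO and 81.4, 111 and 75.6 in Control (1.11 ± 0.20 SE, adjusted p = 0.00374). Neither gene overlapped between groups, and both calls held under all 19 alternatives.

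Of the type VI chains, Col6a1 and Col6a2 rose. These genes, both on the minus strand of chromosome 10 with 85387 bases between them, assemble with Col6a3. Col6a1 had 1271, 684 and 601 normalized reads in Tfam cKO and 459, 519 and 376 in Control (0.85 ± 0.22 SE, adjusted p = 0.0249). Col6a2 had 1071, 571 and 497 in Tfam cKO and 359, 474 and 301 in Control (0.86 ± 0.24 SE, adjusted p = 0.0328). Tfam cKO replicate 1 was far above the other libraries of its group for both, and without it the log2 fold changes were 0.52 for each (adjusted p = 0.0395 for Col6a1 and 0.0761 for Col6a2). The calls of Col6a1 and Col6a2 also ended without Control replicate 1 (adjusted p = 0.0859 and 0.120) or 3 (0.122 and 0.151), in a robust limma fit (0.212 and 0.245) and with DESeq2 (0.117 and 0.166). The Col6a2 to Col6a1 ratio per exon length was 0.890 ± 0.008 in Tfam cKO and 0.887 ± 0.076 in Control (exact permutation p = 1).

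Col6a3, the long chain of type VI, averaged 1116 ± 466 normalized reads in Tfam cKO and 767 ± 95 in Control (0.47 ± 0.22 SE, adjusted p = 0.190). The call was gained when Tfam cKO replicate 3 was left out (0.73, adjusted p = 0.0414). Its ratio to Col6a1 per exon length was lower in Tfam cKO, at 0.481 ± 0.040 against 0.626 ± 0.038, with no overlap (exact permutation p = 0.1, 0.15 adjusted over the 15 ratios). Of the chains that can take its place, Col6a5 fell and Col6a6 did not pass. Col6a5 had 2 reads in all Tfam cKO libraries and 29 in Control, 13.7 times as many in Control once scaled (95% counting interval 3.47 to 119, adjusted p = 0.0107, but 0.0626 without Control replicate 1 and 0.0695 without Control replicate 3). Col6a6 had 28 reads in Tfam cKO and 10 in Control (1.13 ± 0.54 SE, adjusted p = 0.198).

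Of the transmembrane collagens, Col13a1 alone passed the threshold. Col13a1, a membrane collagen of cell adhesion sites, was at 87.6, 83.8 and 98.4 normalized reads in Tfam cKO and 136, 137 and 129 in Control (-0.57 ± 0.12 SE, adjusted p = 0.00895), with no overlap, and its call ended only without both Col3a1-rich libraries among the alternatives run (adjusted p = 0.0904). Col25a1, a chain of neurons and of developing muscle, averaged 82.6 ± 34.3 normalized reads in Tfam cKO and 77.3 ± 16.4 in Control, and Col23a1 12.6 ± 14.7 and 9.72 ± 2.19, and neither passed. Col26a1 averaged 12.4 ± 3.26 normalized reads in Tfam cKO and 4.48 ± 3.46 in Control, without overlap (1.44 ± 0.46 SE, adjusted p = 0.0613). It passed with pseudocount 5 (adjusted p = 0.0499), in a robust fit (0.0371) and without Control replicate 2 (0.0203). Col7a1, of the anchoring fibrils of skin, averaged 8.97 ± 2.10 normalized reads in Tfam cKO and 7.72 ± 4.13 in Control, and Col28a1 4.18 ± 3.98 and 3.25 ± 0.43.

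Ratios between chains within a library do not depend on how libraries are scaled, apart from the pseudocount. Of the 15 ratios compared, 10 had no overlap between groups (exact permutation p = 0.1 each, the smallest possible, and 0.15 adjusted over the 15). No such count was made for pairs of other genes, and ratios that share Col1a1 or Col2a1 are not independent. Measured against Col2a1, both type XI chains stood lower in Tfam cKO, by -0.95 (Col11a1) and -1.54 (Col11a2) in log2, and Col9a1 stood higher, by 1.82. Per exon length, the libraries held 1.38, 2.69 and 3.21 times as much Col11a2 as Col2a1 in Tfam cKO and 7.20, 6.41 and 6.30 times as much in Control. Measured against Col1a1, Col2a1 stood higher by 1.27, Col12a1 by 1.15 and Col3a1 by 1.14, the last with overlapping libraries (exact permutation p = 0.3). Col1a1 itself had a log2 fold change of -1.09, while Col2a1 (0.18), Col12a1 (0.05) and Col3a1 (0.05) did not pass the threshold.

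**Figure D4:**
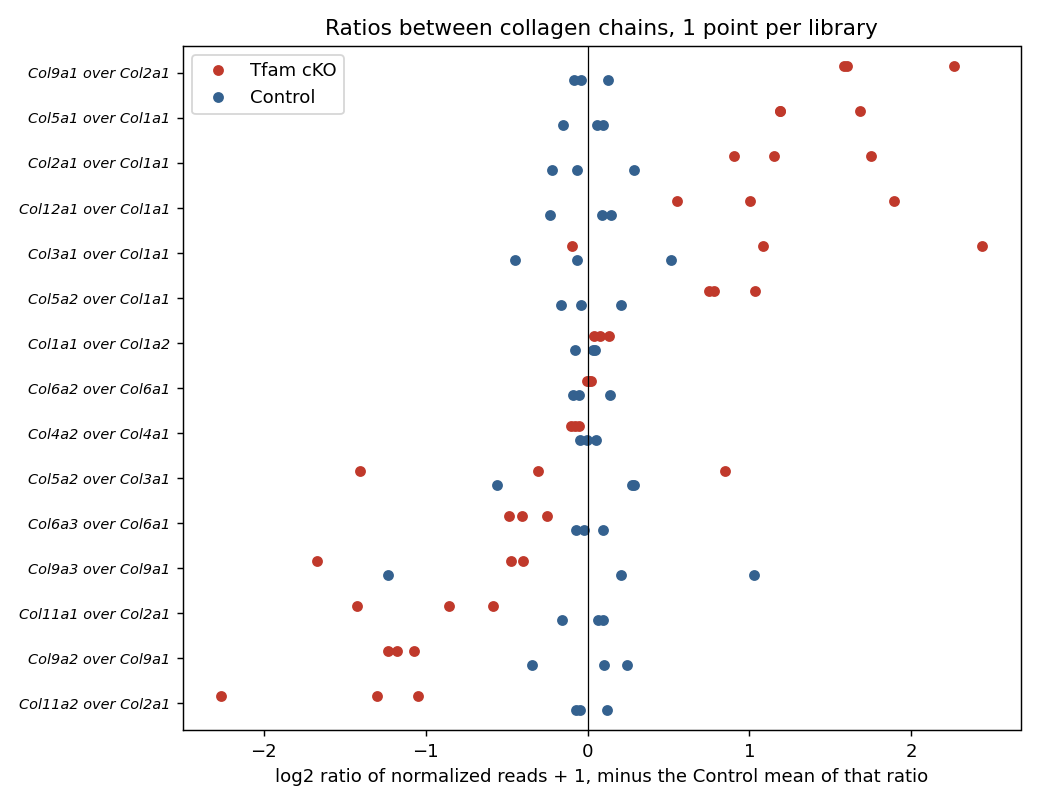
Log2 ratios between pairs of chains in each library, after subtraction of that ratio's Control mean, with Tfam cKO above Control in each row. Rows with Tfam cKO points away from 0 include Col9a1 over Col2a1 (1.82) and Col11a2 over Col2a1 (-1.54) and, within a type, Col9a2 over Col9a1 (-1.16) and Col6a3 over Col6a1 (-0.38).

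The spread within a group was shared by many chains. Tfam cKO replicate 1 was the highest library of its group in 28 of 40 chains (70%, against 32.6% of all genes tested), and Control replicate 2 in 30 (75%, against 32.3%). Both held at once in 21 chains (52.5%, against 13.3%). Of the type I genes and Col11a2, Tfam cKO replicate 3 was the highest in its group, so this order was not general. Skeletal muscle markers moved with Col3a1: their summed normalized reads were 11096, 5079 and 1322 in Tfam cKO and 1216, 7625 and 3096 in Control, and 0 of 10 markers passed the threshold by limma. Their part in the spread of the chains was not tested.

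**Figure D5:**
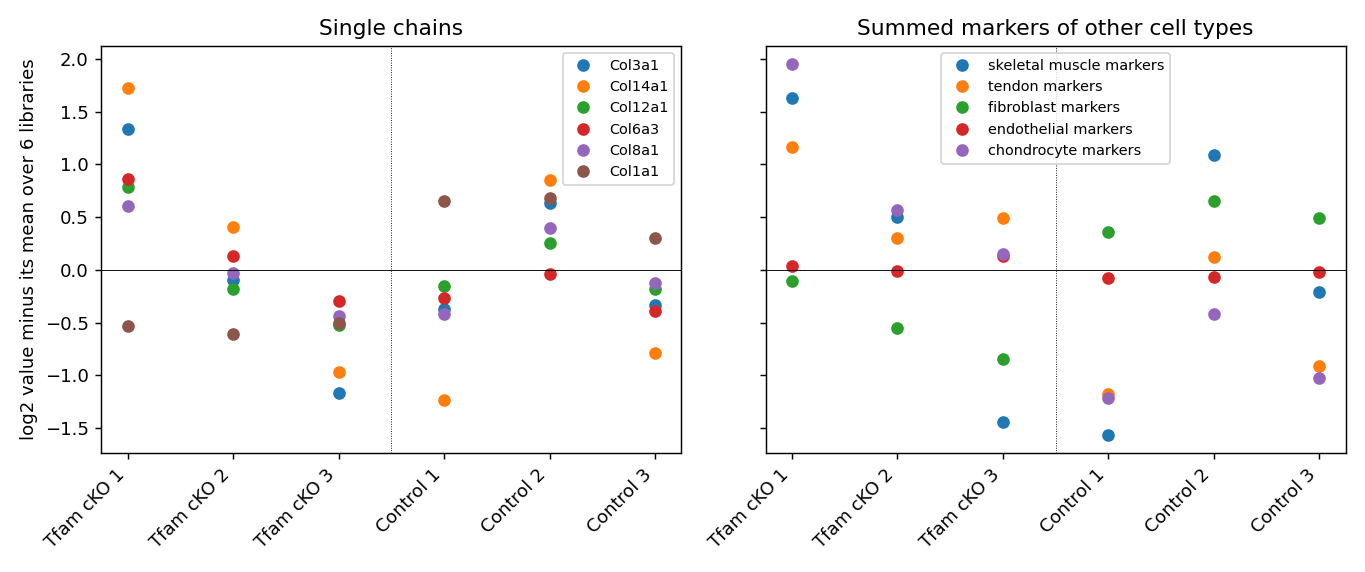
Log2 value of 6 chains (left) and of the summed markers of 5 cell types (right) in each library, minus the mean over the 6 libraries. Tfam cKO replicate 1 and Control replicate 2 lie highest in their groups for Col3a1, Col14a1 and the muscle markers, while Col1a1 separates the genotypes.

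Markers of the cells that make collagen were set beside the chains. The marker counts here and below stand beside 6.42% higher and 6.01% lower of all genes tested. The sample expressed bone markers strongly, and of 12 osteoblast markers 3 were higher and 2 lower, with a summed level of 21201 to 26948 normalized reads in Tfam cKO and 15350 to 15842 in Control. Spp1 (means of 12830 in Tfam cKO and 8072 in Control) and Ibsp (4706 and 1890) made up most of that sum. The median log2 fold change of the list was 0.16. Ibsp, Alpl and Spp1 were higher, and Bglap and Bglap2, near-identical neighbours, were lower, with 4 lower once libraries were rescaled to equal totals outside collagen genes. Of 10 chondrocyte markers tested, 4 were higher and 0 lower, at 189 to 657 summed normalized reads in Tfam cKO and 73.3 to 127 in Control, among them Comp (2.31) and Hapln1 (2.38), and 2 were higher without both Col3a1-rich libraries. Their defining marker Acan had 320, 113 and 62.4 normalized reads in Tfam cKO and 40.2, 75.9 and 38.8 in Control (1.40, adjusted p = 0.0572). Tfam cKO replicate 1 was the highest library for Acan as for Col9a1, and the part of these markers in the rise of Col9a1 was not tested.

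Markers of basement membrane makers gave different answers. Endothelial markers summed to 1327 to 1473 normalized reads in Tfam cKO and 1275 to 1321 in Control, with 1 of 8 higher, Emcn, and Pecam1 not called (0.24, adjusted p = 0.161). Pericyte and smooth muscle markers summed to 943 to 1669 normalized reads in Tfam cKO and 575 to 799 in Control, with 3 of 7 higher (Acta2, Cspg4 and Tagln) and Rgs5 lower. That sum includes Des, at 549, 280 and 67.7 in Tfam cKO and 54.2, 269 and 109 in Control. Within each group Des had the library order of the skeletal muscle markers. The part of the endothelial and pericyte markers in the rise of Col4a1, Col4a2, Col15a1 and Col18a1 was not tested. Without Control replicate 3, Tfam cKO replicate 3 or both Col3a1-rich libraries, 0 endothelial markers were higher, and without both Col3a1-rich libraries 0 pericyte markers were lower. Fibroblast markers summed to 751 to 1249 normalized reads in Tfam cKO and 1723 to 2122 in Control. Of 8, 0 were higher and 3 lower (Dcn, Lum and Pdgfra). Most of that sum was Dcn (means of 260 in Tfam cKO and 819 in Control), Lum (452 and 738) and Pdgfra (116 and 245). Of the markers not called, Thy1 (0.70), Dpt (0.58) and Mfap5 (0.52) had positive log2 fold changes. Those of Pi16 (-0.43) and Clec3b (-0.09) were negative. Col6a1 and Col6a2 were higher in Tfam cKO, and the part of the fibroblast markers in their levels was not tested.

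Of the remaining marker lists, 1 of 6 tendon markers was higher (Fmod) and 0 lower, and 2 were higher without Control replicate 2 or both Col3a1-rich libraries. The tendon markers summed to 455 to 828 normalized reads in Tfam cKO and 164 to 401 in Control. Most of that sum was Fmod (means of 448 in Tfam cKO and 155 in Control). Of the markers not called, Thbs4 (1.45), Scx (0.92) and Tnmd (0.12) had positive log2 fold changes. Those of Mkx (-0.99) and Kera (-0.99) were negative. Of 6 Schwann cell markers 0 were higher and 1 lower (Mbp), with sums of 114 to 205 in Tfam cKO and 151 to 183 in Control. The Mbp call ended with DESeq2 and when Tfam cKO replicate 3, Control replicate 1 or Control replicate 3 was omitted, and 1 Schwann cell marker was higher with DESeq2, with edgeR and without Tfam cKO replicate 3. Of 7 blood cell markers tested 2 were lower (Cd79a and Rag1), with sums of 2011 to 2830 in Tfam cKO and 2710 to 3368 in Control, and 6 were lower without Tfam cKO replicate 2. Keratinocyte markers summed to 1.08 to 7.41 normalized reads in Tfam cKO and 2.81 to 7.96 in Control, with Krt5, Krt14 and Krt15 at 0 in every library.

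Of 32 genes tested that fold and mature collagen, 4 were higher and 2 lower, beside 6.42% higher and 6.01% lower of all genes, with a median log2 fold change of 0.19 (0.01 over all genes tested). The lower count was 1 when any 1 library other than Tfam cKO replicate 1 was left out, without both Col3a1-rich libraries and with DESeq2. Pcolce, which enhances removal of the C-terminal propeptide from type I procollagen, was at 337, 262 and 243 normalized reads in Tfam cKO and 559, 702 and 610 in Control (-1.16 ± 0.13 SE, adjusted p = 0.000216). Its relative Pcolce2 rose (1.41 ± 0.31 SE, adjusted p = 0.0106), but at a lower level, 37.3 ± 12.9 normalized reads in Tfam cKO and 13.4 ± 4.80 in Control. Loxl4, a crosslinking lysyl oxidase, averaged 239 ± 38 in Tfam cKO and 115 ± 10 in Control (1.03 ± 0.13 SE, adjusted p = 0.000531). Plod3, a lysyl hydroxylase that also glycosylates collagen, averaged 211 ± 16 and 125 ± 19 (0.76 ± 0.13 SE, adjusted p = 0.00269). The Pcolce2 call ended without Tfam cKO replicate 1 (adjusted p = 0.0546), Control replicate 1 (0.0540) or both Col3a1-rich libraries (0.140), and 2 genes were then higher in each of these fits.

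Receptors and transcription factors completed the pathway, and their counts stand beside 6.42% higher and 6.01% lower of all genes tested. Of 10 receptors and uptake genes, 3 were higher and 0 lower: Itgb1, the beta subunit of the collagen-binding integrins (1484 ± 114 normalized reads in Tfam cKO and 981 ± 49 in Control, 0.59 ± 0.10 SE, adjusted p = 0.00229), Ddr2, a kinase receptor for fibrillar collagen (0.58, adjusted p = 0.0103), and Mrc2, which takes up collagen (0.40, adjusted p = 0.0264). Ddr1 was at 0.55 and did not pass (adjusted p = 0.104). Itgb1 alone of the 3 stayed past the threshold without Control replicate 1, without Tfam cKO replicate 3 or without both Col3a1-rich libraries. Of 9 transcription factors of bone and cartilage collagen genes, 3 were higher and 1 lower. Creb3l1, which drives Col1a1 in osteoblasts, averaged 340 ± 22 normalized reads in Tfam cKO and 161 ± 35 in Control (1.10 ± 0.14 SE, adjusted p = 0.000504), while Col1a1 was lower. Atf4, a stress-response factor of osteoblasts (0.57, adjusted p = 0.00438), and Dlx5, an osteoblast homeobox factor (0.70, adjusted p = 0.0293), were also higher, and Sox6, a cofactor of Sox9 in cartilage, was lower (-0.70, adjusted p = 0.0248). The Dlx5 call ended without Tfam cKO replicate 1 (0.104), Tfam cKO replicate 3 (0.0867) Control replicate 3 (0.103) or both Col3a1-rich libraries (0.128) and with DESeq2 (0.118), and that of Sox6 without Tfam cKO replicate 1 (0.0839), Tfam cKO replicate 3 (0.108) Control replicate 1 (0.129) or both Col3a1-rich libraries (0.154).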

How the data were processed

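Poly(A) RNA of humeri was sequenced in 3 Tfam cKO and 3 Control libraries, per the labels' protocols, and TopHat, Cufflinks and mm10 appear in the submitters' processing notes. Neither the counting program, nor strand use, nor the test behind the q-values is given in the sources used here. What the authors deposited is a signal per gene and library, made of read counts divided by 1 size factor per library. All values are whole multiples of 1 read (100% within 0.001 reads), giving 1441152 to 1714770 reads per library. The authors' deposited q-value, an adjusted p-value, was used only to count calls.

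limma 3.58.1 (R 4.3.3) with a mean-variance trend was fitted on log2(normalized reads + 1) to 14438 genes with a mean of at least 1, with genotype as the only term and Benjamini-Hochberg adjustment at 0.05 over all genes. Fold changes on this scale understate those of genes with few reads. Shares and ratios were tested by exact two-sided permutation over 20 arrangements. edgeR 4.0.16 and DESeq2 1.42.0 on the recovered reads, other pseudocounts (0.1 and 5), filters, scalings, a replicate block, a robust fit, removal of the exon length trend and omission of each library were alternatives. The scripts were tested on simulated data. No pair of libraries within a group agreed within sampling noise (chi-square per degree of freedom 2.36 to 4.90).

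The members and lists were chosen with earlier results of these data known. The genes named were Tfam, every chain and, of the processing, receptor and transcription factor lists, the 4 with the smallest p. For marker lists these are counts and sums. A defining marker was given for the chondrocyte list (Acan) but not for every list. Called markers, and the other tendon and fibroblast markers, were named after their values were seen. Exon overlaps are those of the deposited exon blocks. Ddr2 shares 90 of 8290 exon bases with 3110045C21Rik, and Plod3 shares 315 of 3278 with Znhit1, both on the opposite strand.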

Additional observations from a re-analysis of the deposited data

How the results depend on the processing

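Of the chains past the threshold, Col11a2, Col11a1, Col18a1, Col15a1, Col9a1, Col4a1 and Col4a2 kept their call and direction under all 19 alternatives. edgeR called 9 chains higher and 7 lower and DESeq2 7 and 6. Leaving out 1 library gave 6 to 10 higher and 4 to 8 lower, and leaving out both Col3a1-rich libraries gave 7 and 4. The scalings moved the median of all genes by at most 0.07, and no filter left 9 and 7. That setting kept genes with at least 1 read, a limit set after a first run with genes at 0 in every library, whose spread is 0, had ended most calls. The share of all reads in the 41 chains other than type I differed by 0.0140 percentage points. This difference turned negative without Tfam cKO replicate 1, Control replicate 1, Control replicate 3 or both Col3a1-rich libraries. Tfam cKO replicates 2 and 3 (1.11% and 1.02%) lay below every Control library (1.17%, 1.42% and 1.20%). The difference in the share of all reads in FACIT collagens, 0.00523 percentage points, was -0.0305 without Tfam cKO replicate 1 and 0.0266 at the other end of the single omissions, -0.00340 without Control replicate 1, -0.000267 without Control replicate 3, -0.0164 without both Col3a1-rich libraries and -0.00277 when values were divided by exon length; the cause was not tested. The other shares kept their direction; with values divided by exon length, the difference in the share of all reads in all collagen chains was -2.84 percentage points in place of -5.55. The difference in log2 ratio Col5a2 over Col3a1 was -0.29, with -0.86 to 0.27 over the single omissions, and 0.27 came without Tfam cKO replicate 1. The difference in log2 ratio Col6a2 over Col6a1 was 0.01, with -0.036 (without Control replicate 1) to 0.077 over them, and -0.017 came without Control replicate 3.

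Same-numbered libraries of the genotypes did not deviate together (r = -0.23, 0.01 and 0.09), so the numbers were not taken as pairs. With the replicate number as a block, 9 chains were higher and 5 lower, with adjusted p = 0.0540 for Col1a1 and 0.0506 for Col27a1. Of the processing, receptor and transcription factor genes named, Mrc2 (0.0577) and Dlx5 (0.0504) also lost their call, the folding and processing genes called lower numbered 1 in place of 2, and the Schwann cell markers called lower 0 in place of 1 (Mbp). Depth limits the chains with few reads, and the counting interval of Col4a3 (0.770 to 292) includes equal levels.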

Other observations

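In the authors' deposited table, 15 chains had a q-value under 0.05, and all 15 were also past the threshold in limma. Col27a1 was the 1 chain called by limma alone, with q = 0.0536 in the authors' deposited table. Other pairs of chains lie close together in the genome: Col4a3 and Col4a4 are divergent with 71 bases between their starts, and Col4a5 and Col4a6 with 1342. Of these 4 genes Col4a5 alone passed the threshold, and the difference between it and its neighbour was not tested.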
